A study of Mus musculus with 8 samples.

Results

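Cadherins and non-clustered protocadherins are cell-surface adhesion proteins, and their RNA was followed here through the subfields, interneurons and glia of the mouse hippocampus. The genes were chosen by symbol alone, as every feature named Cdh or Pcdh followed by a number, with an x allowed after a Pcdh number. The rule found 35 genes among the 32285 features. By family they were 5 type I classical cadherins, 13 type II classical cadherins, the GPI-anchored Cdh13, 4 other cadherins, 4 delta-1 protocadherins, 5 delta-2 protocadherins and 3 other protocadherins.

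The nuclei came from male wild-type C57BL/6J pups at postnatal day 21, profiled by single-nucleus multiome sequencing, which reads RNA (GEX) and open chromatin (ATAC) from the same nucleus. Dams 8 weeks old were fed folic acid at 2 mg/kg (the conventional diet, MF) or 20 mg/kg (the excess diet, HF) from 2 weeks before mating until the end of lactation. Each diet had 2 libraries, named MF1, MF2, HF1 and HF2, and how many pups stood behind a library was not stated, so p-values between diets measure only the spread between these libraries. No genotype other than wild-type and no further agent was given to either group.

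Classical cadherins bind the same or a related cadherin on the neighbouring cell through calcium-dependent extracellular repeats, and their cytoplasmic tails hold catenins that link them to actin. Type II cadherins pair within specificity groups, and their patchwork in the brain is known for marking neuronal populations and their synaptic partners, as for Cdh9 at the contacts that granule cells of the dentate gyrus make on CA3 neurons. Non-clustered protocadherins adhere more weakly, lack the catenin-binding tail, and signal through the WAVE complex and phosphatases.

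Of 14297 deposited nuclei, 11518 passed the quality filters (2249 to 3473 per library), with medians of 6117 to 7053 UMIs per nucleus. Nuclei were clustered with the 35 genes left out of the genes that drove the clustering, and clusters were named from marker genes, so each name means a population resembling that type. Excitatory neurons (EXC, 4904 nuclei) held CA1 (1013), CA3 (378), mature dentate granule (DG-M, 1947), immature dentate granule (DG-i, 924) and subiculum (377) neurons. DG-i was the cluster led by Sema3c and Igfbpl1. Clustering of all nuclei also gave a cluster of 217 nuclei with the DG-i markers Rasef, Cdhr1 and Lepr among its leading genes. None of these markers was among the 10 leading genes of DG-i, so DG-M may hold part of those nuclei. Inhibitory neurons (INH, 568) were divided by lineage into Lhx6 (346) and Adarb2 (222) nuclei, and glia into astrocytes (AST, 1291), oligodendrocyte progenitors (OPC, 592), committed progenitors (COP, 367), oligodendrocytes (ODC, 579) and microglia (MG, 709). Vascular and leptomeningeal nuclei (145) and Cajal-Retzius nuclei (96) completed the 14 classes. Clusters rich in likely doublets (1786 nuclei called mixed), cycling nuclei and clusters left unnamed among all nuclei entered no class, whereas EXC also held 265 excitatory nuclei that fell in no named subfield.

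Some libraries stood apart in RNA that belongs to other cells. Summed haemoglobin markers reached 16533 counts scaled to a common library total (CPM) in OPC of the MF1 library, 6627 in the subiculum of HF1 and 3506 in COP of MF2, and lay at 1197 or less in every other class of MF2, HF1 and HF2. Summed choroid plexus markers reached 11530 CPM in vascular and leptomeningeal nuclei and 3716 in MG of HF1, against at most 84.6 in any class of the other libraries. Between 8 and 20 cell barcodes were shared by any pair of libraries. The part of these in the values below was not tested, beyond leaving out each library in turn.

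The promoters of 4 members are shown first because the results below return to these genes in both RNA and accessibility at the start site. Each run is 300 bases from 250 before to 50 after the RefSeq start (GRCm38.p6), and capitals mark the E box CANNTG, which reads the same on both strands. Cdh6 lies on the minus strand at chr15:13173626-13173925, Cdh9 on the plus strand at chr15:16728665-16728964, Pcdh8 on the minus strand at chr14:79771263-79771562 and Pcdh15 on the plus strand at chr10:73821617-73821916. The Pcdh15 window surrounds an internal start, since the annotated gene spans chr10:73099342-74649737.
Cdh6: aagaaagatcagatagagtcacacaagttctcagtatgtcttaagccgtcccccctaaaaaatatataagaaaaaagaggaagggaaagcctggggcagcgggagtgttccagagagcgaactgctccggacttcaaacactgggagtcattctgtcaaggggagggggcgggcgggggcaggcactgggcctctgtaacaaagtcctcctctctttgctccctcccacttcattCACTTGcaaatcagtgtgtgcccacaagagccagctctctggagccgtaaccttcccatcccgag
Cdh9: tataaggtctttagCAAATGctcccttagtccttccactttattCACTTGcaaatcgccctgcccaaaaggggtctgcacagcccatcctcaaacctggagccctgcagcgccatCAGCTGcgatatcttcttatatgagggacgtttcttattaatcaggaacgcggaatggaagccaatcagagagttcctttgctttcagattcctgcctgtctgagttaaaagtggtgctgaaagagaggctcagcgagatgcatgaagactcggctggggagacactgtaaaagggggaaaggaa
Pcdh8: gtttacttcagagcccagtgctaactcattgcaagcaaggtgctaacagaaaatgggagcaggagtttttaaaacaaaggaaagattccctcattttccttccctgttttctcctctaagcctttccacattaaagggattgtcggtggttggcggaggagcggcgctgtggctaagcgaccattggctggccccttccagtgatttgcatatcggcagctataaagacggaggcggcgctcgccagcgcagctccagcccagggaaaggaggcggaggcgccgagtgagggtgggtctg
Pcdh15: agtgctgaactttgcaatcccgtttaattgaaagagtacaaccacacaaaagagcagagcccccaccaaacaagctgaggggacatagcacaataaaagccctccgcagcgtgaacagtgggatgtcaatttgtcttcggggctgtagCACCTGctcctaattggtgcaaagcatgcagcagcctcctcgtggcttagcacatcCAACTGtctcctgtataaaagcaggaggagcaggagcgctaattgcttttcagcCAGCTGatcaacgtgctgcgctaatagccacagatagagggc
The E box occurred 1 time in the Cdh6 run, 3 times in Cdh9, 0 times in Pcdh8 and 3 times in Pcdh15. It was held by 72.3% of 32851 mouse promoters of the same length and by 15 of the 25 sequences that matched 22 members. Cdh6 and Cdh9 shared a run of 15 bases, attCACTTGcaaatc, which begins at base 233 of the Cdh6 window and base 42 of the Cdh9 window. No other promoter in the table held that run on either strand, whereas the longest runs shared by the other pairs were 8 to 10 bases and were held by 74 to 966 promoters. The shared run was looked for after the sequences had been seen, and it describes these windows only.

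The genes themselves were long. Their median length was 123 kb against 17.4 kb over 21894 protein-coding genes, and the longest was Pcdh15 at 1550 kb. Several shared a chromosome, with Cdh6, Cdh9, Cdh10, Cdh12 and Cdh18 on chromosome 15 and Cdh20, Cdh7 and Cdh19 on chromosome 1. Counts from nuclei include unspliced RNA, so levels were compared between classes for each gene and not between genes.

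Every gene was first described by its level, as CPM of the UMIs summed over a class in 1 library, given as the mean ± SD of the 4 libraries. At least 1 class lay over 100 CPM for 21 of the 35 genes. The epithelial and other cadherins Cdh1, Cdh3, Cdh15, Cdh16, Cdh17 and Cdh26 and the endothelial protocadherin Pcdh12, 7 genes in all, stayed under 10 CPM in each of the 14 classes. For 14 genes the lowest library of the highest class lay above every library of the second class. This count describes the members and has no share over all genes beside it.

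Among type I cadherins, Cdh2 (N-cadherin) was broad. It averaged 725 ± 120 CPM in AST and 722 ± 87.8 in DG-i, levels that overlapped, and fell to 22.4 in MG. Cdh4 (R-cadherin) was concentrated in Cajal-Retzius nuclei. Its level there was 961, 715, 1009 and 1309 CPM (MF1, MF2, HF1, HF2). The next class, the Adarb2 lineage, averaged 90.8 ± 20.0 CPM, far below the lowest Cajal-Retzius library.

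The type II cadherins divided the subfields. Cdh18 was highest in the subiculum, with 1751, 1211, 1519 and 1349 CPM in the same order of libraries. Lhx6 interneurons came next at 389 ± 21.0, and DG-i was lowest at 3.54, so the libraries of the first 2 classes did not overlap. Cdh11 (OB-cadherin) was also highest in the subiculum, at 870 ± 67.0 CPM, above CA3 at 608 ± 68.3. The subiculum class joined 2 clusters. One, led by Foxp2, Rmst and Dpp10 (259 nuclei), had 3 subiculum markers among its 50 leading genes and 0 among its first 10, and the other, led by Vwc2l and Kcnh8 (118 nuclei), had 4 and 2. Cdh18 was at 1771 ± 366 CPM in the Foxp2 cluster and 846 ± 98.1 in the Vwc2l cluster. Cdh11 was at 683 ± 27.7 and 1266 ± 127, and in the Foxp2 cluster its libraries overlapped those of CA3. With members allowed to drive the clustering a Foxp2 cluster of 244 nuclei was left unnamed, and the class held 162 nuclei there and 157 with finer clustering.

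Cdh8 was similarly high in both granule neuron classes, at 1139 ± 166 CPM in DG-i and 1134 ± 99.0 in DG-M, with overlapping libraries. Cdh9 was highest in DG-M (852 ± 89.8) and then in CA3 (605 ± 32.9), and the 2 classes did not overlap. Cdh10 was shared by DG-i at 1050 ± 167 and AST at 965 ± 56.2. Cdh12 stood at 456 ± 58.4 in DG-M and 426 ± 37.5 in Lhx6 interneurons, again overlapping.

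Of the other type II genes, Cdh20, Cdh19 and Cdh5 were highest in glia or in vascular and leptomeningeal nuclei. Cdh20 was highest in COP (1873 ± 64.8 CPM), then in AST (822 ± 172), without overlap. Cdh19, known from the glial lineage of peripheral nerve, was highest in ODC (1060 ± 165), with AST at 245 ± 69.4. Cdh5 (VE-cadherin), which seals endothelial junctions, reached 68.3 ± 11.1 in vascular and leptomeningeal nuclei on 20 UMIs and 1.47 ± 1.93 in the next class, MG. Of the vascular and leptomeningeal nuclei 26.2% counted as likely doublets, and with these left out Cdh5 was at 52.5 CPM. Cdh6 was highest in Cajal-Retzius nuclei (222 ± 86.9) and OPC (195 ± 33.8), which overlapped. Cdh7 was highest in Lhx6 interneurons (134 ± 18.4), overlapping Cajal-Retzius nuclei (94.1 ± 39.5). The lowly detected Cdh22 and Cdh24 peaked at 29.3 ± 9.88 in the subiculum and at 20.7 ± 2.50 in CA3, both overlapping the class below.

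Cdh13 (T-cadherin), which is held by a lipid anchor and has no cytoplasmic tail, was similar in OPC (567 ± 53.7 CPM) and Lhx6 interneurons (555 ± 142). Cdh23, a tip-link component of hair cells, was found mainly in MG. Its level in MG was 217, 178, 146 and 142 CPM, against 6.59 ± 2.94 in DG-M, the next class. Vsir, a microglial immune checkpoint gene that lies inside Cdh23 on the opposite strand, stood at 554 ± 58.2 CPM in MG, and whether the counting used strand was not given in the sources used here, so the 2 genes cannot be told apart with certainty. In the same class Pcdh9 was at 120 ± 53.6 CPM, its lowest level of the 14 classes, and no other member exceeded 32.6. Summed EXC markers stood at 4397 to 4934 CPM in MG, summed ODC markers at 720 to 1240 and summed OPC markers at 277 to 427. The part of all these in the Pcdh9 level was not tested.

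Of the 4 delta-1 protocadherins, all but Pcdh1 were highest in the oligodendrocyte lineage. Pcdh9 in ODC was at 33877, 42397, 37404 and 44335 CPM. COP followed with 7226 to 16159 CPM, and none of these libraries reached the lowest ODC library. Pcdh7 was highest in COP (3866 ± 670) and next in OPC (1637 ± 220), without overlap. Pcdh11x was highest in OPC (1372 ± 169), above ODC at 604 ± 225. Pcdh1 was low, at 42.2 ± 12.2 in CA3.

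The delta-2 and other protocadherins were more divided. Pcdh17 was highest in COP (1120 ± 189 CPM). Pcdh10 was similar in AST (280 ± 33.7) and OPC (254 ± 36.3). Pcdh19, mutated in a female-limited epilepsy, stood at 137 ± 14.4 in DG-M and 123 ± 17.7 in Lhx6 interneurons. Pcdh8, an activity-induced protocadherin, was 31.3 ± 4.78 in DG-M, and Pcdh20 was 83.5 ± 15.8 there. Pcdh18 reached 23.0 ± 26.5 in vascular and leptomeningeal nuclei, a spread wider than its mean. Pcdh15, the other tip-link component, was highest in OPC (4066 ± 350) and then in DG-i (2205 ± 337), without overlap.

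**Figure D1:**
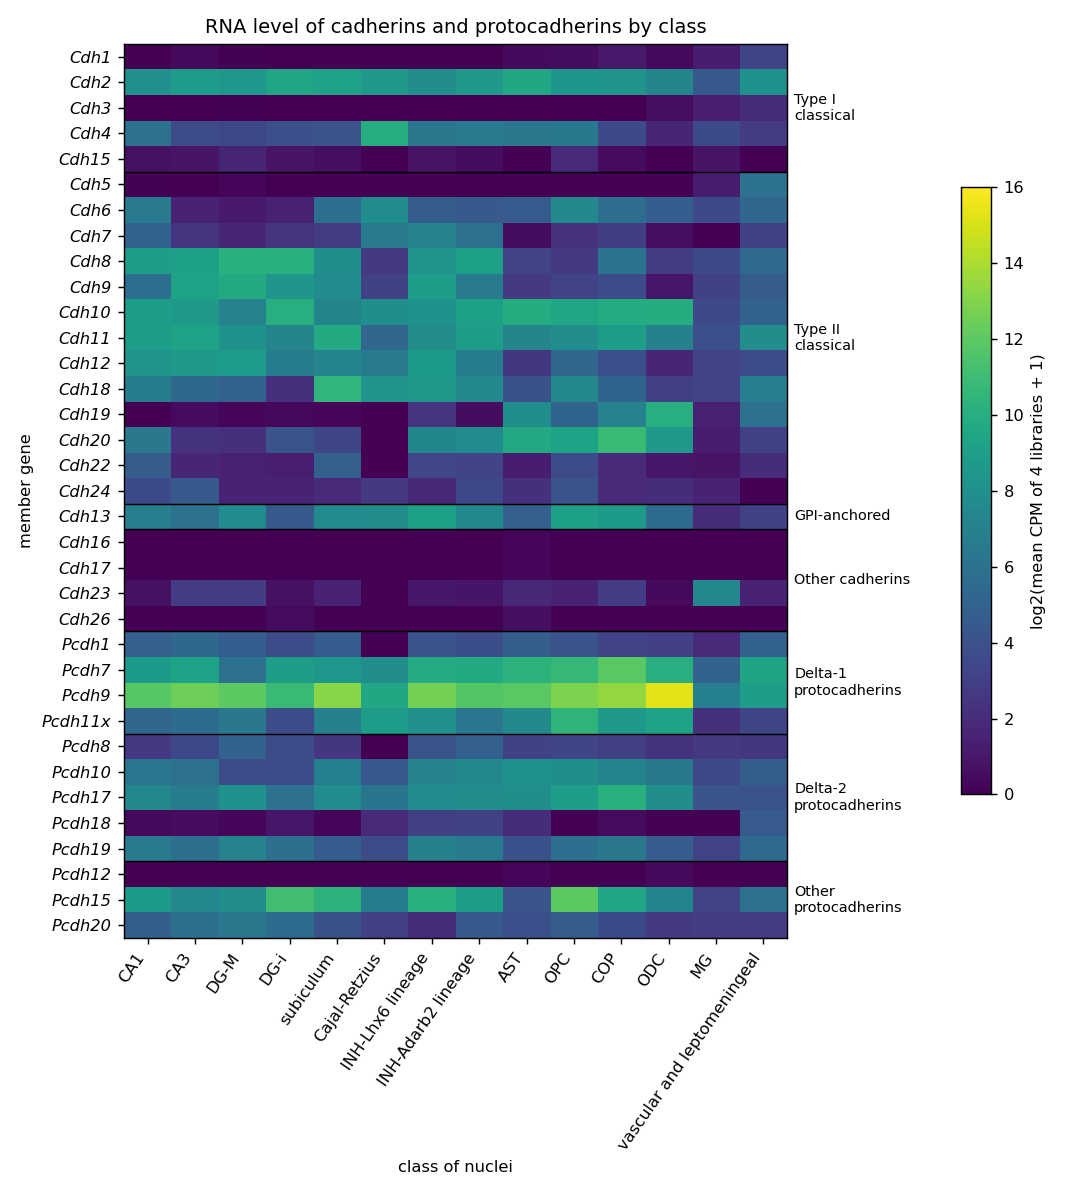
Level of the 35 genes (rows, grouped by family) in 14 classes of nuclei (columns), coloured by log2 of the mean CPM of 4 libraries plus 1. Pcdh9 is brightest in ODC at 39503 CPM, Cdh4 stands out in Cajal-Retzius nuclei at 999 CPM, and MG is dark for most members, with Cdh23 as the one member highest there.

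**Figure D2:**
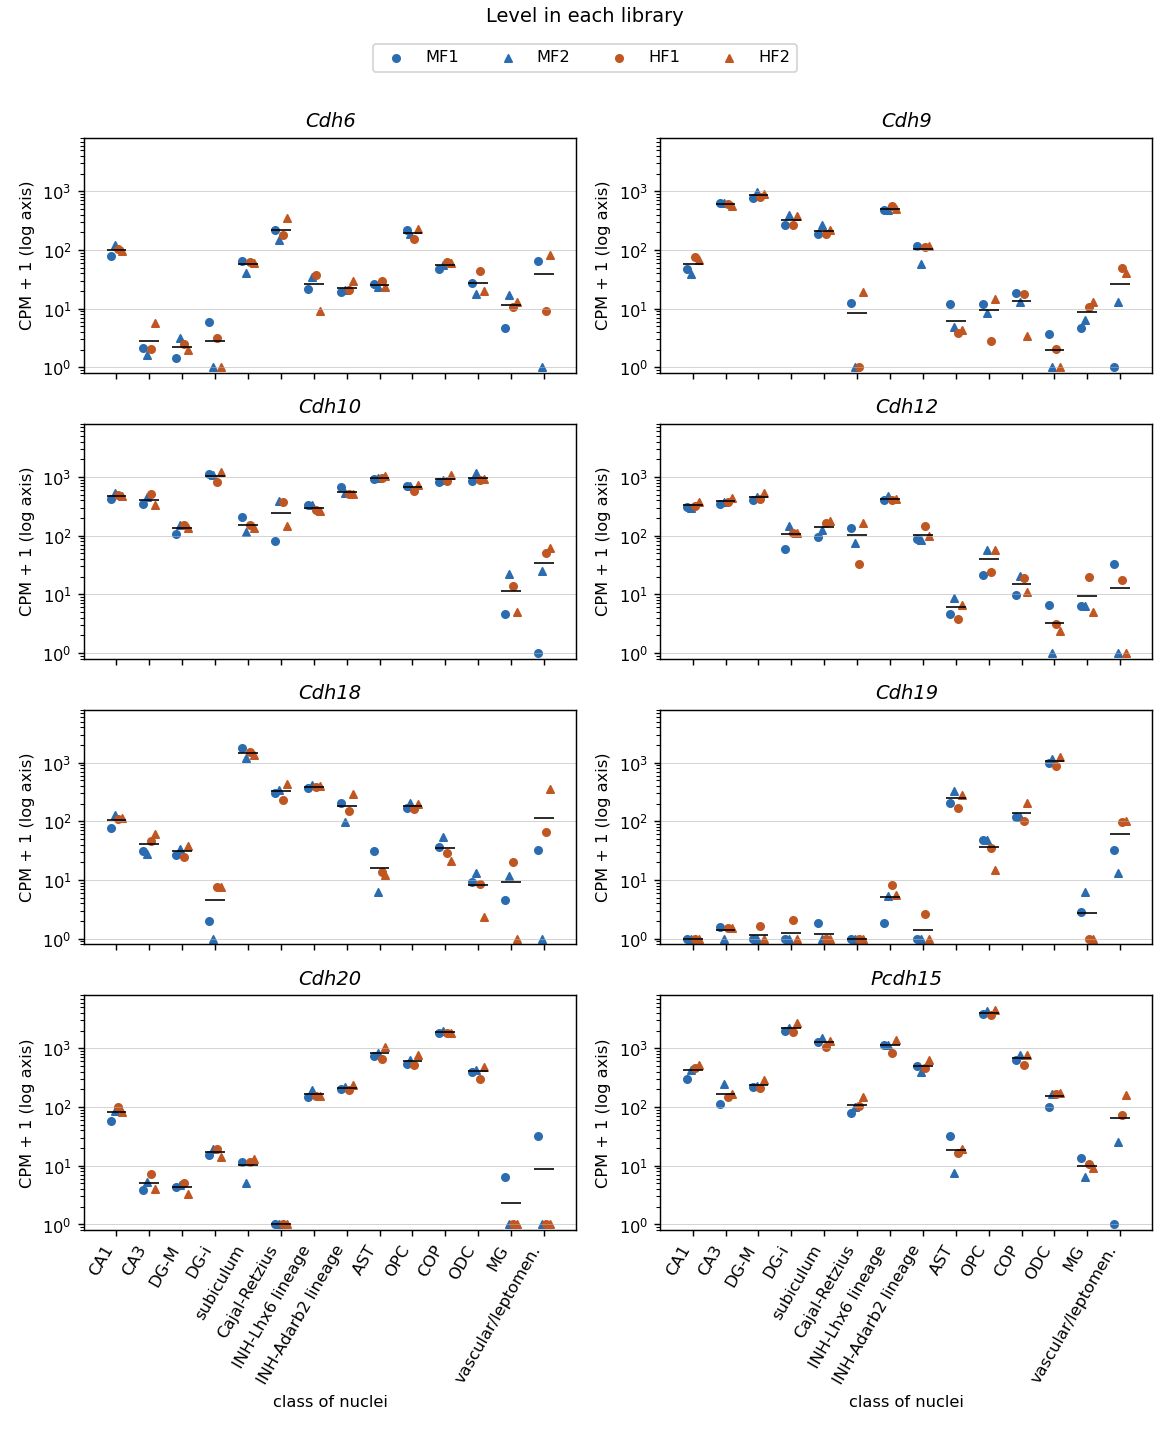
CPM plus 1 on a log axis for 8 members across the classes, with 1 point per library (MF blue, HF orange, replicate 1 circles, replicate 2 triangles) and a line at the mean of the 4. Cdh6 falls from 99.1 CPM in CA1 to 1.85 in CA3 and Cdh9 rises from 56.4 to 605, and within CA1 both HF points of Cdh9 lie above both MF points.

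Differences between classes were tested over all genes with edgeR's quasi-likelihood test and the library as a block, and a gene was called at an adjusted p under 0.05 and at least 2-fold. In the 9 comparisons 27 of the 35 genes passed the filter on low counts at least once, and each of the 27 was called in at least 1 comparison, as were 57.1% of all genes that passed at least once. The 8 that never passed were Cdh1, Cdh3, Cdh5, Cdh15, Cdh16, Cdh17, Cdh26 and Pcdh12. Fewer nuclei contributing a transcript and less RNA per nucleus cannot be told apart in these summed values.

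CA1 and CA3 are successive pyramidal fields of the same circuit. Of 24 genes tested, 9 were called, 7 higher in CA1 (Cdh4, Cdh6, Cdh7, Cdh18, Cdh20, Cdh22 and Pcdh15) and 2 higher in CA3 (Cdh9 and Pcdh20), where 9.8% of all genes were called, 5.03% higher in CA1 and 4.77% higher in CA3. Their median absolute log2 fold change was 0.79, against 0.22 over all genes tested.

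Cdh6 and Cdh9 ran in opposite directions. Cdh6 was at 77.8, 122, 103 and 93.2 CPM in CA1 (MF1, MF2, HF1 and HF2) and at 1.13, 0.615, 1.02 and 4.63 in CA3. Every CA1 library was well above every CA3 library, and the log2 fold change was 5.68 ± 0.22 (SE, edgeR adjusted p = 4.18e-21). Here and below, the SE of a log2 fold change is its absolute value divided by the square root of the F statistic. Cdh9 was at 45.9, 38.3, 75.3 and 66.1 CPM in CA1 and 634, 620, 610 and 558 in CA3. The libraries again did not overlap, with a log2 fold change of -3.40 ± 0.10 (edgeR adjusted p = 5.61e-24).

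Cdh20 stood at 57.1, 85.4, 98.3 and 82.0 CPM in CA1 and at 2.83 to 6.15 in CA3, a log2 fold change of 4.31 ± 0.17 (edgeR adjusted p = 1.02e-20). Cdh22 ranged from 22.9 to 30.7 CPM in CA1 and from 2.05 to 2.83 in CA3, a log2 fold change of 3.46 ± 0.24 (edgeR adjusted p = 7.41e-14). Both were higher in CA1 in each library. Pcdh20 was 21.3 to 31.4 CPM in CA1 and 45.8 to 72.9 in CA3, a log2 fold change of -1.05 ± 0.12 (edgeR adjusted p = 5.68e-09), close to the 2-fold limit. It was under that limit without MF1 (-0.95), without the low-count filter (-0.99), with members allowed to drive the clustering (-0.96) and with finer clustering (-0.94).

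CA1 consisted of 2 clusters, and the members differed between them. One, led by Fn1, Pde11a and Dcn (493 nuclei), had 3 CA1 markers and 2 subiculum markers among its 50 leading genes. The other, led by Wfs1 and Fibcd1 (520 nuclei), had 6 CA1 markers. In the Fn1 cluster Cdh20 averaged 140 ± 20.3 CPM against 1.56 ± 1.55 in the Fibcd1 cluster, which held 11 UMIs of it. Cdh13 was 192 ± 20.7 against 4.03 ± 0.78, and Pcdh15 was 715 ± 96.6 against 40.6 ± 13.3. In each of these 3 genes no library of one cluster reached the other. With members allowed to drive the clustering, a cluster of 395 nuclei with Fn1 among its leading genes was left unnamed. With finer clustering such a cluster of 249 nuclei was also unnamed, while one led by Dcn and Tacr3 (348 nuclei) was named CA1. The CA1 class held 739 and 889 nuclei in these settings.

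Cdh22, Cdh7, Pcdh7 and Cdh9 followed the same side, at 41.2, 47.6, 666 and 79.6 CPM in the Fn1 cluster and 6.20, 7.37, 108 and 25.0 in the Fibcd1 cluster. Cdh10 went the other way, at 339 ± 68.1 in the Fn1 cluster and 667 ± 123 in the Fibcd1 cluster, as did Cdh11 and Cdh12. Cdh6 differed less, at 122 ± 22.1 and 68.5 ± 11.2. Of 24 members with at least 20 UMIs, 15 were higher and 3 lower in the Fn1 cluster without overlap of libraries, while 18.5% of 13949 genes did not overlap. These are descriptions of clusters built from the same nuclei and carry no test.

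When CA1 was the Fibcd1 cluster alone, a choice made after seeing these levels, the set of called members changed. Pcdh15 turned from a log2 fold change of 1.42 to -1.94, Cdh13 went from 0.86 to -3.85 and Pcdh7 from -0.49 to -2.43. Pcdh15 was also at -0.07 when the members were allowed to drive the clustering. Cdh7, Cdh20, Cdh22 and Pcdh8 no longer passed the low-count filter and Cdh18 (0.85) was no longer called, whereas Cdh6 (5.15) and Cdh9 (-4.55) kept their directions and their calls.

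CA1 and DG-M differed more. Of 25 genes tested 15 were called, 10 higher in CA1 and 5 higher in DG-M (background 16.6% of all genes, 9.08% and 7.57% in these directions), and the median absolute log2 fold change was 1.95 against 0.33 over all genes. The type II family held 9 of the 15 calls. Cdh6 was 77.8 to 122 CPM in CA1 and 0.454 to 2.15 in DG-M, a log2 fold change of 6.45 ± 0.15 (edgeR adjusted p = 1.36e-19). Cdh20 (4.68 ± 0.13) and Cdh22 (3.95 ± 0.25) followed, and in these 3 genes every CA1 library exceeded every DG-M library.

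Cdh9 was higher in DG-M, where it stood at 758, 961, 804 and 885 CPM, with a log2 fold change of -3.78 ± 0.11 (edgeR adjusted p = 7.42e-18). Pcdh8 was at 7.10, 5.65, 4.40 and 4.16 CPM in CA1 and 35.4, 31.0, 34 and 24.6 in DG-M (-2.42 ± 0.15, edgeR adjusted p = 5.49e-12). Cdh23 was lower in CA1 at -3.16 ± 0.41 on 10 UMIs there and 111 in DG-M, with no UMI in the MF1 library of CA1, which allows up to 0.761 CPM. The comparison was repeated with CA1 as the Fibcd1 cluster alone. Pcdh15 then turned from 0.97 to -2.35 and Cdh13, already lower in CA1, went from -0.83 to -5.51. Pcdh7 went from 2.82 to 0.91 and lost its call, and Cdh20 no longer passed the low-count filter.

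Between CA3 and DG-M, the fields joined by the mossy fibres, 9 of 21 genes were called, 5 higher in CA3 and 4 higher in DG-M (background 14.5% of all genes, 8.06% and 6.44% in these directions). Cdh9, present in both, differed by less than 2-fold (-0.36) and was not called. Cdh24 was at 20.9, 24.0, 20.0 and 18 CPM in CA3 and 0.908, 2.45, 1.87 and 2.13 in DG-M (3.61 ± 0.25, edgeR adjusted p = 2.43e-11). Pcdh7 was 542 to 689 CPM in CA3 and 47.6 to 74.4 in DG-M (3.32 ± 0.09, edgeR adjusted p = 6.4e-19). Pcdh10, a delta-2 protocadherin that binds the WAVE complex, was 53.7 to 71.2 in CA3 and 9.98 to 12.8 in DG-M (2.53 ± 0.13, edgeR adjusted p = 4.08e-14). None of these overlapped between classes.

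All 4 delta-2 protocadherins tested were called, 3 of them higher in DG-M. Pcdh8 was at 14.1, 9.84, 11.3 and 5.65 CPM in CA3, below all 4 DG-M libraries (-1.49 ± 0.17, edgeR adjusted p = 6.44e-08). Pcdh17 was 93.7 to 138 CPM in CA3 and 237 to 300 in DG-M (-1.23 ± 0.08, edgeR adjusted p = 2.11e-12), and Pcdh19 fell in the same direction (-1.12). Cdh13 was 52.0 to 72.5 in CA3 and 185 to 252 in DG-M (-1.66 ± 0.09, edgeR adjusted p = 1.32e-13).

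Immature and mature granule neurons represent steps of neurogenesis that goes on after birth in the dentate gyrus. Of 20 genes tested 15 were called, 4 higher in DG-i and 11 higher in DG-M (background 21.5% of all genes, 10.6% and 10.9% in these directions), and the median log2 fold change of the members was -1.29, against 0.05 over all genes. All 4 delta-1 protocadherins were called, with Pcdh7 higher in DG-i and Pcdh1, Pcdh9 and Pcdh11x higher in DG-M.

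Pcdh15 was at 2011, 2219, 1917 and 2673 CPM in DG-i and 218, 230, 214 and 286 in DG-M, so each DG-i library was several times any DG-M library (2.99 ± 0.06, edgeR adjusted p = 1.16e-28). Cdh10 was 813 to 1203 CPM in DG-i and 104 to 152 in DG-M (2.73 ± 0.10, edgeR adjusted p = 3.78e-22). Pcdh7 was 464 to 539 in DG-i and 47.6 to 74.4 in DG-M (2.72 ± 0.08, edgeR adjusted p = 7.44e-24). Cdh20 was the fourth gene higher in DG-i (1.99).

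Cdh13 was at 28.0, 15.2, 31.5 and 14.9 CPM in DG-i and 185, 252, 202 and 231 in DG-M (-3.37 ± 0.15, edgeR adjusted p = 4.24e-19). Pcdh11x was 3.0 to 21.3 in DG-i and 69.3 to 98.3 in DG-M (-3.19 ± 0.21, edgeR adjusted p = 1.13e-14). Cdh18 was lower in DG-i at -3.26 ± 0.34 on 11 UMIs, with none in MF2, which allows up to 4.57 CPM. Cdh2 and Cdh8 were tested and not called, with levels in DG-i given above. With finer clustering DG-i held 1106 and DG-M 1755 nuclei, and DG-i then included clusters of 258 and 106 nuclei with Lepr among their leading genes. In that setting 10 members were called in place of 15. The share of all genes called in that fit is not given here, so the 2 counts cannot be compared.

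Inhibitory and excitatory neurons differed in 10 of 26 genes, 8 higher in INH and 2 higher in EXC (background 18.2% of all genes, 9.57% and 8.63% in these directions). Cdh7 was at 120, 122, 92.2 and 103 CPM in INH and 13.5, 17.9, 23.1 and 15.3 in EXC (2.64 ± 0.14, edgeR adjusted p = 1.39e-11). Cdh20 was 168 to 199 in INH and 34.3 to 58.1 in EXC (2.10 ± 0.11, edgeR adjusted p = 1.35e-11). Pcdh18 had the largest difference on few counts, with 46 UMIs in INH and 15 in EXC (4.58 ± 0.39, edgeR adjusted p = 1.37e-08). All libraries of INH exceeded those of EXC in these 3 genes.

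Pcdh20 was higher in EXC, at 43.0 to 64.0 CPM against 4.40 to 13.3 in INH (-2.42 ± 0.17, edgeR adjusted p = 9e-10). Cdh23 was higher in EXC on 6 UMIs in INH (-1.89 ± 0.50, edgeR adjusted p = 0.00464), with none in the MF2 library of INH, which allows up to 2.20 CPM. Within INH the lineages differed in 7 of 21 genes, 6 higher in Lhx6 nuclei and 1 higher in Adarb2 nuclei (background 6.82% of all genes, 3.2% and 3.62% in these directions).

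Cdh9 was at 479, 475, 553 and 490 CPM in Lhx6 nuclei and 116, 57.3, 113 and 117 in Adarb2 nuclei (2.26 ± 0.14, edgeR adjusted p = 5.28e-12). Cdh12, also on chromosome 15, was 399 to 481 against 83.7 to 147 (2.00 ± 0.14, edgeR adjusted p = 5.96e-11), and Pcdh11x was 194 to 282 against 65.9 to 103 (1.70 ± 0.13, edgeR adjusted p = 5.64e-10). Cdh11 was the only member called higher in Adarb2 nuclei, at 369 to 541 CPM against 196 to 268 (-1.04 ± 0.11, edgeR adjusted p = 6.81e-08). It sat at the 2-fold limit and fell under it without HF2 (-0.93) and without the low-count filter (-0.99).

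Among glia, AST and OPC differed in 9 of 19 genes, 2 higher in AST and 7 higher in OPC (background 27.9% of all genes, 13.8% and 14.1% in these directions). Pcdh15 was at 30.6, 6.5, 15.7 and 18.2 CPM in AST and 3817, 4276, 3723 and 4446 in OPC, the widest gap of the comparison (-7.83 ± 0.16, edgeR adjusted p = 2.38e-79). Cdh13 was 19.8 to 38.6 in AST and 497 to 627 in OPC (-4.24 ± 0.16, edgeR adjusted p = 2.06e-51). Cdh18 was 5.20 to 30.6 in AST and 164 to 201 in OPC (-3.62 ± 0.21, edgeR adjusted p = 6.06e-33).

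Cdh19 and Cdh2 were the members called higher in AST. Cdh19 was at 205, 324, 171 and 279 CPM in AST and 47.3, 46.5, 33.8 and 13.7 in OPC (2.80 ± 0.19, edgeR adjusted p = 1.51e-28). Cdh2 was 563 to 840 in AST and 299 to 366 in OPC (1.12 ± 0.12, edgeR adjusted p = 2.2e-15). Summed astrocyte markers stood at 4857 to 6104 CPM in OPC and 33502 to 39959 in AST, and their part in these values was not tested.

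ODC and OPC, the ends of the oligodendrocyte lineage, differed in 13 of 18 genes, 2 higher in ODC and 11 higher in OPC (background 34.6% of all genes, 14.6% and 19.9% in these directions), with a median log2 fold change of -1.09 against -0.07 over all genes. Cdh19 was at 967, 1157, 880 and 1236 CPM in ODC, against 13.7 to 47.3 in OPC (4.98 ± 0.18, edgeR adjusted p = 3.32e-22). Pcdh9 was 33877 to 44335 in ODC and 6678 to 9185 in OPC (2.47 ± 0.07, edgeR adjusted p = 1.65e-25). Neither gene overlapped between the classes.

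Cdh4 was 76.4 to 101 CPM in OPC and rested on 5 UMIs in ODC, with none in HF1, which allows up to 3.22 CPM (-5.34 ± 0.38, edgeR adjusted p = 3.08e-14). Pcdh15 was at 100, 165, 166 and 172 CPM in ODC (-4.64 ± 0.12, edgeR adjusted p = 4.32e-26) and Cdh18 at 8.23, 12.2, 7.51 and 1.36 (-4.55 ± 0.25, edgeR adjusted p = 3.64e-17). All 3 were lower in each ODC library than in any OPC library.

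AST and EXC differed in 18 of 26 genes, 6 higher in AST and 12 higher in EXC (background 40.3% of all genes, 18.8% and 21.5% in these directions). Type II cadherins made up 11 of the calls, 3 of them higher in AST. Cdh19 was 171 to 324 CPM in AST and had 9 UMIs over the 4 libraries of EXC, with none in MF2, which allows up to 0.297 CPM (10.16 ± 0.22, edgeR adjusted p = 6.19e-32). Cdh20 was 650 to 1049 in AST and 34.3 to 58.1 in EXC (4.20 ± 0.15, edgeR adjusted p = 1.83e-25), and Pcdh10 was 235 to 317 against 51.1 to 57.2 (2.30 ± 0.10, edgeR adjusted p = 8.24e-22).

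The neuronal cadherins Cdh9, Cdh8 and Cdh12 were low in AST, at 2.85 to 10.8, 6.81 to 10.8 and 2.85 to 7.80 CPM. Their EXC levels were 405 to 488, 706 to 768 and 353 to 416 CPM, giving log2 fold changes of -6.70 ± 0.20, -6.55 ± 0.17 and -6.43 ± 0.20 (edgeR adjusted p = 1.82e-27, 1.42e-29 and 2.17e-27). No library overlapped in any of the 3.

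**Figure D3:**
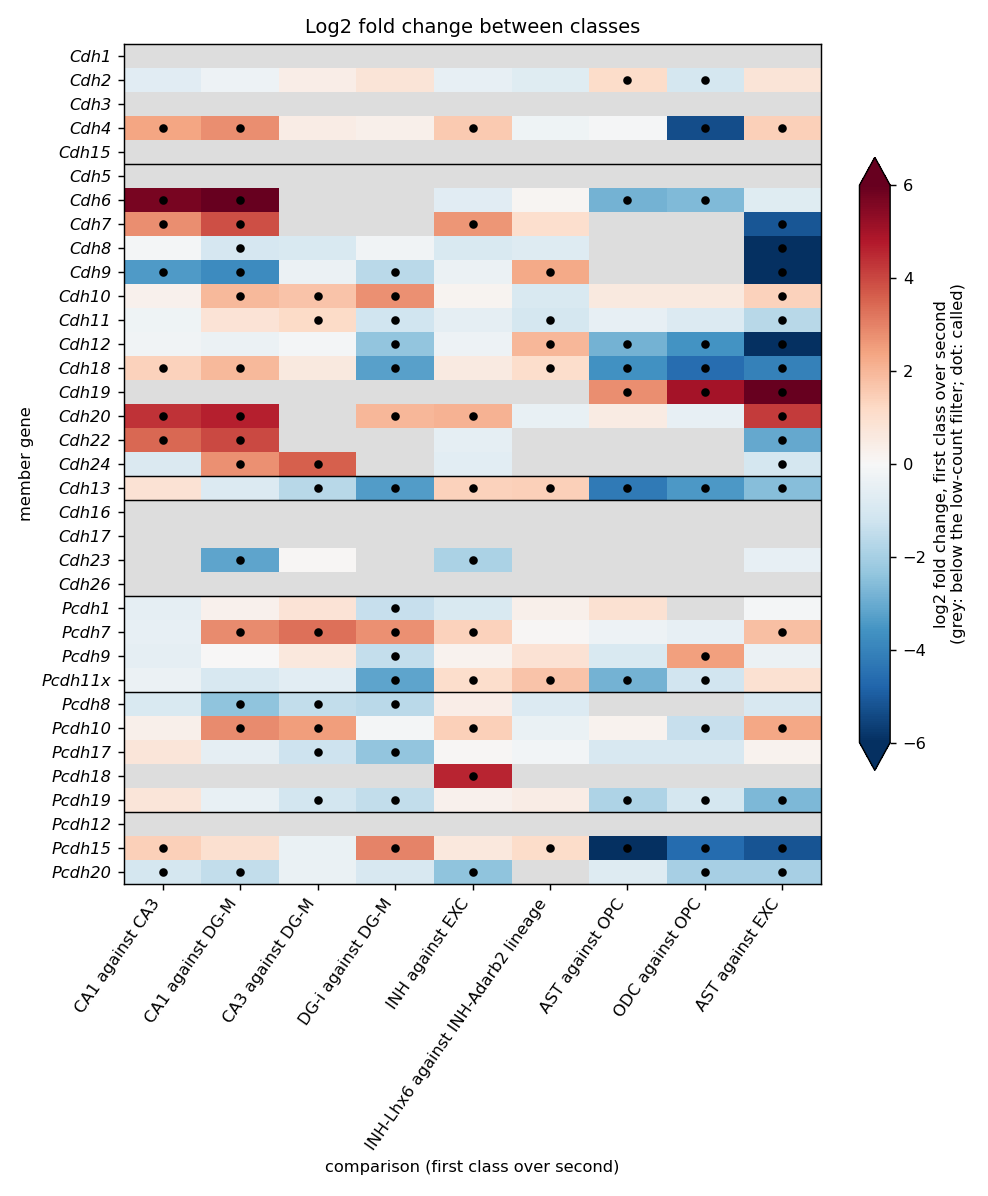
Log2 fold change of the 35 genes (rows) in the 9 comparisons (columns, first class over second), with red for higher in the first class, grey for genes below the count filter and a black dot for a call. Cdh6 and Cdh9 take opposite colours in both CA1 columns (5.68 and -3.40 against CA3), and the column of DG-i against DG-M is mainly blue with 11 of 15 calls higher in DG-M.

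A list of 16 catenins and WAVE complex genes and a list of 20 other cadherin superfamily genes were read from the same fits. Unlike the members, these genes were not left out of the genes that could drive the clustering. Catenins and partners had no call of 15 tested between the interneuron lineages, where 6.82% of all genes were called. Their most calls, 9 of 15, were between ODC and OPC (4 higher, 5 lower, background 34.6%). Ctnna3 (alpha-T-catenin) was higher in CA1 than CA3 (2.05 ± 0.13, edgeR adjusted p = 4.4e-15), as was Vcl (vinculin, 1.0 ± 0.10), the only calls of 15 tested (background 9.8%).

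Between DG-i and DG-M, Ctnna1 (alpha-E-catenin) was higher in DG-i (1.91 ± 0.20) and Vcl higher in DG-M (-1.17 ± 0.17), with 4 and 3 calls of 16 tested (background 10.6% and 10.9%). Between AST and EXC, Ctnna1 (3.14 ± 0.13) and Vcl (3.08 ± 0.10) led 4 calls of 16 tested higher in AST, and Cyfip2, a WAVE complex subunit, led 4 higher in EXC (-2.73 ± 0.14). Of all genes 40.3% were called there, 18.8% and 21.5% in these directions. In ODC against OPC the delta-catenin Ctnnd2 was higher in OPC (-3.48 ± 0.11).

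Of the other superfamily genes, the giant cadherin Dchs2 was higher in CA3 than in DG-M (5.64 ± 0.21, edgeR adjusted p = 7.6e-17) and than in CA1 (-2.43 ± 0.15), and higher in CA1 than DG-M (3.19 ± 0.29). Fat3 was higher in OPC than ODC (-6.52 ± 0.22), and Celsr1 higher in AST than EXC (4.07 ± 0.34). This list had 10 calls of 14 tested in each of INH against EXC (background 18.2% of all genes) and AST against EXC (40.3%), and 1 of 10 between the interneuron lineages (6.82%). Cdhr1, which was higher in DG-M than CA1 (-3.64 ± 0.39), had also served as a marker of DG-i.

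Accessibility was read at 41 regions within 1 kb of an annotated start of 27 members, from regions that held a peak in every library. Annotated starts included internal ones, as for the Pcdh15 promoter printed above. Regions were tested with edgeR's quasi-likelihood test over all shared regions and called at an adjusted p under 0.05 and at least 1.5-fold. Beside each count stands the share called among shared regions near coding starts. The median log2 fold change over those regions was -0.30 in CA1 against DG-M, -0.35 in CA3 against DG-M and 0.39 in INH against EXC, where the members' own medians were -0.03, -0.11 and 0.39.

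In CA1 against CA3, 7 of 38 regions were called, 4 higher in CA1 and 3 higher in CA3 (background 9.98% of regions near starts, 4.6% and 5.38% in these directions). The Cdh6 region at chr15:13172962-13173948, which covers the promoter printed above, was at 15.1, 11.7, 9.75 and 10.1 ATAC CPM in CA1 and 2.71, 1.58, 4.53 and 4.41 in CA3. Each CA1 library was above each CA3 library (1.83 ± 0.32, edgeR adjusted p = 1.88e-05), the direction of its RNA. The Cdh9 region at chr15:16728337-16729229 was lower in CA1, at 4.63 to 7.70 against 7.09 to 14.7 CPM, with overlapping libraries (-0.80 ± 0.27, edgeR adjusted p = 0.0196). That call was lost without MF1 (-0.59, edgeR adjusted p = 0.167) and without HF1 (-0.77, edgeR adjusted p = 0.070).

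Regions of Cdh22 (0.78 ± 0.18) and Pcdh17 (0.80 ± 0.26) were also higher in CA1, and one of Cdh15 was lower (-1.67 ± 0.34). The Cdh18 region at chr15:23174256-23175225 was lower in CA1, at 2.28 to 2.60 against 5.58 to 6.79 CPM (-1.28 ± 0.39, edgeR adjusted p = 0.00869), while Cdh18 RNA was higher in CA1 (1.40). That region lies at an internal start, as the gene spans chr15:22549022-23474418 on the plus strand. The region's call was lost without HF2 (-1.19, edgeR adjusted p = 0.051), and the RNA was under the 2-fold limit with CA1 as the Fibcd1 cluster (0.85). The Pcdh17 call was lost without MF2 or HF1 (both 0.63). Of the 4 called regions whose gene was also called in RNA, 3 had the direction of the RNA.

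In CA1 against DG-M 15 of 40 regions were called, 8 higher in CA1 and 7 in DG-M (background 21.6%, 7.71% and 13.9% in these directions), and all 10 with a called gene had the direction of its RNA. The Pcdh8 region at chr14:79770858-79771735 was 17.6 to 20.8 CPM in CA1 and 39.3 to 48.7 in DG-M (-1.2 ± 0.10, edgeR adjusted p = 9.75e-14). The Cdh6 region was again higher in CA1 (1.51 ± 0.21, edgeR adjusted p = 9.14e-08) and the Cdh9 region higher in DG-M (-0.97 ± 0.20, edgeR adjusted p = 7.55e-05). The largest increases besides Cdh6 were at Cdh2 (2.11 ± 0.37) and Cdh12 (1.07 ± 0.22), whose RNA was not called, and the Cdh15 region was lower (-0.91 ± 0.29).

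In CA3 against DG-M 8 of 40 regions were called, 5 higher in CA3 and 3 in DG-M (background 25.5%, 6.75% and 18.8% in these directions). The regions of Pcdh8 (-0.79 ± 0.12), Pcdh17 (-0.65 ± 0.13) and Pcdh19 (-0.87 ± 0.33) were higher in DG-M, as was the RNA of all 3 delta-2 genes. Regions of Cdh2 (1.76 ± 0.52), Cdh18 (1.66 ± 0.40) and Cdh10 (1.0 ± 0.26) were higher in CA3. The Cdh2 region, at chr18:16670757-16671714, lies at an internal start of a gene that spans chr18:16588877-16809246 on the minus strand. All 5 called regions with a called gene had the direction of its RNA, and without the MF1 library 5 regions were called in place of 8. Single calls were lost for Cdh2 without MF1 (1.39), for Pcdh17 without MF2 (-0.54) and for Pcdh19 without HF1 (-0.68) or HF2 (-0.69). With total-count scaling the Pcdh17 (-0.54) and Pcdh19 (-0.76, edgeR adjusted p = 0.057) regions also lost their calls.

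In INH against EXC 15 of 41 regions were called, 13 higher in INH and 2 in EXC (background 32.8%, 26.7% and 6.04% in these directions). The Cdh4 region was 25.2 to 36.7 CPM in INH and 8.04 to 11.2 in EXC (1.68 ± 0.16, edgeR adjusted p = 6.58e-10). Both Pcdh18 regions were higher in INH (1.77 ± 0.58 and 1.55 ± 0.26), and regions of Cdh8 (-1.01 ± 0.32) and Pcdh20 (-0.74 ± 0.25) were higher in EXC. All 8 called regions with a called gene had the direction of its RNA. Calls were lost for Cdh8 without MF2 (-0.87), for Pcdh20 without MF1 (-0.70) or HF2 (-0.59) and for the first Pcdh18 region without HF2 (1.16).

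In AST against OPC 12 of 29 regions were called, 1 higher in AST and 11 in OPC (background 27.4%, 10.6% and 16.8% in these directions). The Pcdh15 region at chr10:73821486-73822427 held 6 counts in AST and 115 in OPC, where it was at 23.0, 7.48, 14.4 and 14.9 CPM (-5.01 ± 0.57, edgeR adjusted p = 1.1e-09). Regions of Cdh11 (-2.61 ± 0.25) and Cdh13 (-2.49 ± 0.30) were also higher in OPC, and 1 of Pcdh18 was higher in AST (0.89 ± 0.31), a call lost without MF1 (0.64). The 4 called regions with a called gene had the direction of its RNA.

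Over the whole gene bodies 579 shared regions lay on 34 members. Of all shared regions 33.4% were called in CA1 against CA3 (17.2% higher in CA1, 16.2% in CA3) and 55.4% in CA1 against DG-M (30.3% higher in CA1, 25.1% in DG-M). Over the members 400 regions were tested in CA1 against CA3, 76 of them higher in CA1 and 80 higher in CA3, and 504 in CA1 against DG-M, 159 higher in CA1 and 158 higher in DG-M. In CA1 against CA3, 5 of 11 tested Cdh6 regions were called and all 5 were higher in CA1, while 3 of 6 Cdh9 regions were called and all 3 were higher in CA3. In CA1 against DG-M, 10 Cdh6 regions were higher and 2 lower, and 5 of 7 Cdh9 regions were higher in DG-M.

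**Figure D4:**
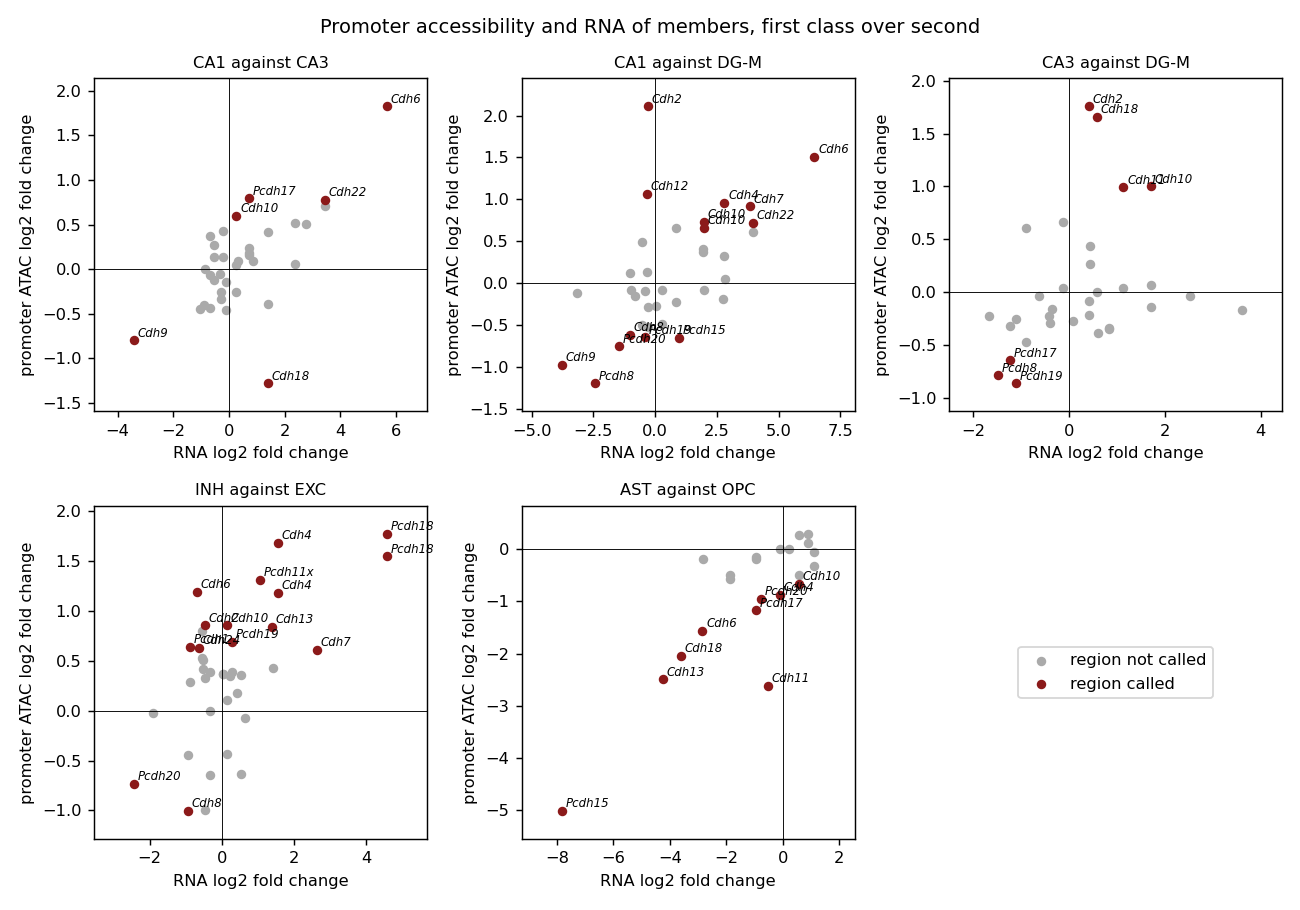
Promoter ATAC log2 fold change (vertical) against RNA log2 fold change of the same gene (horizontal), 1 point per region, in 5 comparisons, with called regions in dark red and named. Genes that were not tested in RNA are left out. Called regions lie in the lower left and upper right, except Cdh18 in CA1 against CA3 and some regions whose gene was not called in RNA.

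The effect of the maternal diet was tested in 11 groups of nuclei, with the library as the replicate. The group of all nuclei held all 11518 nuclei that passed the filters, including the mixed, cycling and unnamed ones. No member was called at an adjusted p under 0.05 and 1.2-fold by edgeR's quasi-likelihood test, in 218 tests of a gene in a group. DESeq2 also called 0, and 11 of the 218 tests had an unadjusted p under 0.05. Members called with the replicate number as a block are given in the last section. The share of all genes called was 0% except in INH (0.00913%) and OPC (0.0793%). The smallest edgeR adjusted p of any member was 0.99955.

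Over all genes the share with an unadjusted p under 0.05 was 1.08% in all nuclei, 1.27% in EXC, 1.73% in CA1, 1.98% in CA3, 1.78% in DG-M, 1.59% in DG-i, 2.14% in INH, 2.68% in AST, 2.55% in OPC, 2.35% in ODC and 3.07% in MG. Members reached that p in 1 of 26 tests in EXC, 1 of 24 in CA1, 2 of 22 in CA3, 2 of 22 in DG-M, 1 of 18 in DG-i, 2 of 19 in OPC, 1 of 14 in ODC and 1 of 3 in MG, and in 0 tests in all nuclei, INH and AST. The 2 diets did not overlap for 13 of 26 members in EXC (21.4% of all genes), 7 of 24 in CA1 (24.8%), 8 of 22 in CA3 (28.4%) and 6 of 22 in DG-M (23.3%). The count was 5 of 28 in all nuclei (18.3%), 5 of 18 in DG-i (25.4%), 6 of 24 in INH (27.1%), 4 of 18 in AST (27.7%), 4 of 19 in OPC (27.5%), 5 of 14 in ODC (27.3%) and 1 of 3 in MG (27.5%). The members' share stood furthest above that of all genes in EXC, whose nuclei include CA1, CA3 and both granule classes, and the difference was not tested.

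Cdh9 in CA1 had the smallest unadjusted p. Its levels were 45.9 and 38.3 CPM under MF and 75.3 and 66.1 under HF, so both HF libraries were above both MF libraries. The log2 fold change was 0.79 ± 0.18 (edgeR unadjusted p = 0.00091). In CA3 the same gene was at 634, 620, 610 and 558 CPM, with a log2 fold change of -0.03 ± 0.19.

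Cdh18 in CA3 was at 30 and 26.4 CPM under MF and 45.6 and 59.1 under HF (0.97 ± 0.24, edgeR unadjusted p = 0.0016). It was higher in both HF libraries. Without HF1 it was called (1.21, edgeR adjusted p = 0.0084), the one member called when a library was left out, and HF then held a single library, assumed to vary like the others.

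Pcdh11x had the smallest unadjusted p in 3 groups, each time higher in HF. In EXC it was at 80.4 and 77.5 CPM under MF and 123 and 85.6 under HF (0.46 ± 0.18, edgeR unadjusted p = 0.027). In HF1 it was at 39.1 in CA1, 48.1 in CA3, 88.4 in DG-M and 9.77 in DG-i, all below the 123 of EXC. EXC also held subiculum nuclei, at 99.9 and 169 under MF and 122 and 118 under HF, and an unnamed cluster of 107 nuclei, at 508 and 346 under MF and 485 and 409 under HF. The other 2 unnamed clusters had 46 and 9 nuclei under MF with 56 and 13 under HF, and 4 and 1 with 22 and 7, too few in some libraries for a level. The part of all these nuclei in the difference was not tested. In DG-M it was at 75.6 and 69.3 under MF and 88.4 and 98.3 under HF (0.45 ± 0.19, edgeR unadjusted p = 0.033). In AST it was at 156 and 157 under MF and 215 and 200 under HF (0.43 ± 0.26, edgeR unadjusted p = 0.115). The EXC sums include the DG-M nuclei, so the first 2 are not separate evidence.

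In ODC, Pcdh7 was at 824 and 848 CPM under MF and 1148 and 1449 under HF (0.67 ± 0.29, edgeR unadjusted p = 0.028). In MG, Pcdh9 was at 56.2 and 124 under MF and 114 and 187 under HF, which overlapped (0.91 ± 0.37, edgeR unadjusted p = 0.025). In OPC, Pcdh1 was lower in HF on 14 and 9 UMIs under MF and 4 and 4 under HF (-1.52 ± 0.69, edgeR unadjusted p = 0.029).

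In DG-i, Pcdh17 was at 66.0 and 91.3 CPM under MF and 43.4 and 51.4 under HF (-0.68 ± 0.30, edgeR unadjusted p = 0.033). In INH, Pcdh10 was at 132 and 125 under MF and 142 and 178 under HF (0.35 ± 0.20, edgeR unadjusted p = 0.10). Over all nuclei the smallest was Cdh15, at 1.39 and 1.19 CPM under MF and 0.855 and 0.675 under HF (-0.69 ± 0.36, edgeR unadjusted p = 0.086). None of the 265 tests of partner and superfamily genes was called by edgeR, and 6 had an unadjusted p under 0.05.

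Accessibility over the members gave no call for diet either. Of 571 regions tested in EXC, 0 were called by edgeR, and 26 (4.55%) had an unadjusted p under 0.05 against 3.58% of all regions, with a background of 0.00458% called. The smallest p lay in Pcdh11x at chrX:120673053-120673987, an intragenic region with 1.85 and 1.67 ATAC CPM under MF and 3.5 and 4.0 under HF (log2 fold change 1.11 ± 0.29, edgeR adjusted p = 0.611).

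**Figure D5:**
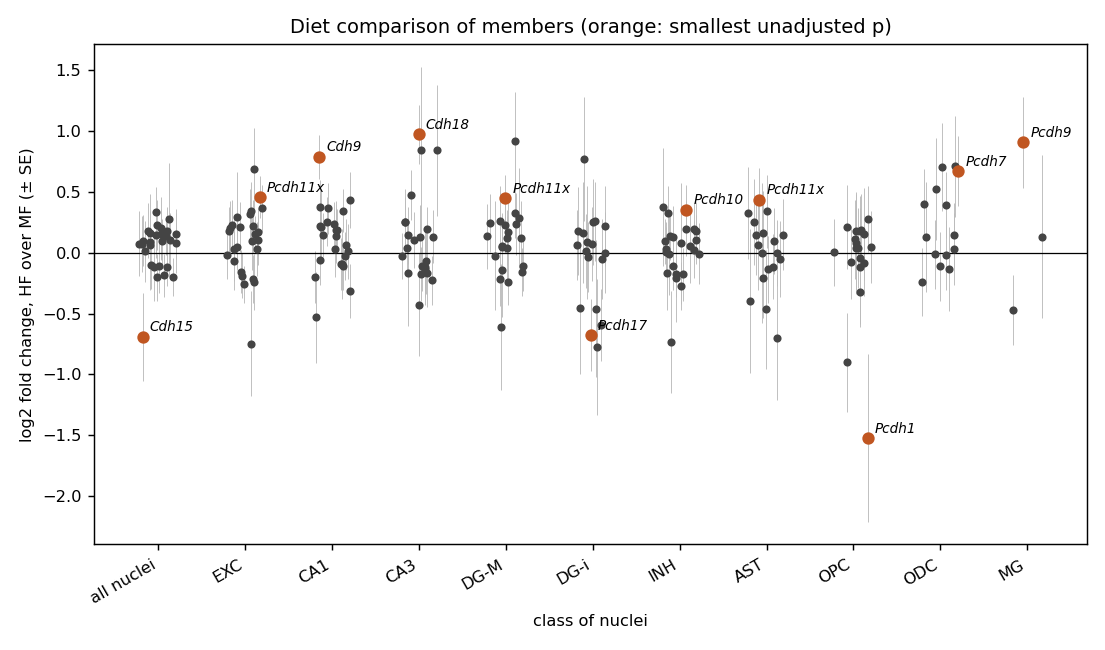
Log2 fold change of HF over MF with its SE for each member tested, by group of nuclei, with the member of smallest unadjusted p named in each group. None was called, and the named points run from -1.52 (Pcdh1 in OPC) to 0.97 (Cdh18 in CA3).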

How the data were processed

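RNA was deposited as raw UMI counts for each gene in each nucleus and ATAC as counts for each peak. The authors produced both on mm10 using Cell Ranger ARC 2.0.1, without normalization, and called peaks in each library separately. Overlapping peaks were merged here, and merged regions with a peak in all libraries were used. Nuclei were kept with 500 to 7000 detected genes, a mitochondrial share under 2% and 1000 to 70000 ATAC counts, and clustered with Leiden in Scanpy 1.11.5. Nuclei with a Scrublet score over 0.05 (14.3 to 16.3% a library) counted as likely doublets, and clusters with a median score over 0.05 were left out of the classes but not of the group of all nuclei. Summed counts per library and class were tested with edgeR 4.0.16 (TMM, filterByExpr, quasi-likelihood) in R 4.3.3 over all genes, with Benjamini-Hochberg adjustment. The script was tested on simulated data. DESeq2 1.42.0, RLE, other filters, finer clustering and leaving out a library or doublets were alternatives. The members and lists were chosen with earlier results of these data known. Named were, per comparison, up to 3 called members a direction by fold (for partners up to 2, promoters up to 3) and, for diet, the smallest p. Pcdh15 in CA1 against CA3 and the 4 printed promoters were chosen after their values were seen. Gene positions came from GENCODE M21 (GRCm38), the build of mm10. Fragments and reads were not analysed here.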

Additional observations from a re-analysis of the deposited data

Results flagged for a closer look

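One difference between classes in the diet effect was past the threshold. The diet effect on Cdh9 RNA (HF over MF) was larger in CA1 than in CA3 by 0.82 on the log2 scale (edgeR interaction test, adjusted p = 0.0038), where 10 of 12497 genes were called. Of 72 such tests of members over 3 pairs of classes, 1 was called. Cdh9 was higher in 2 of 2 HF libraries in CA1, as given above, and in CA3 both HF libraries were below both MF libraries. Every alternative below was chosen after seeing the data. The difference was 0.80 with RLE scaling (adjusted p = 0.0092) and 0.72 to 0.93 with each library left out, where 1 diet held a single library, assumed to vary like the others. It was 0.81 by DESeq2 (adjusted p = 1.0), 0.61 without doublets (0.834), 0.63 with members allowed to drive the clustering (0.171) and 0.40 with finer clustering (0.802), none of them called. With CA1 as its Fn1 cluster the difference was 0.81 (adjusted p = 0.062), and as its Fibcd1 cluster 0.31 (adjusted p = 1.0). The Fn1 cluster, where the Cdh9 level was the higher, made up 42.4% and 49.3% of CA1 nuclei in MF and 51.8% and 51.3% in HF. Its part in the difference was not tested.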

How the results depend on the processing

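Of 246 recomputed counts of called members, 240 stayed within 1.5 times the reported count. The other 6 were these. The labels give same-numbered libraries of the 2 diets a common number, and whether they share anything else is not stated. Their deviations from the mean of their diet correlated at 0.202 over all nuclei and 0.258 in EXC. With 2 libraries a diet, the crossed values (-0.202 and -0.258) follow from these by construction. Peaks numbered 188533 in MF1, 191263 in HF1, 217635 in MF2 and 211711 in HF2. With the replicate block, 1 member was called for diet in place of 0 in each of EXC (Pcdh9, log2 fold change 0.29, edgeR adjusted p = 0.035), CA1 (Cdh9, 0.79, adjusted p = 0.0062), DG-M (Pcdh9, 0.28, adjusted p = 0.033) and ODC (Pcdh7, 0.65, adjusted p = 0.048). The block raised the calls over all genes too. They were 41 of 15927 in EXC, 26 of 12677 in CA1, 20 of 12838 in DG-M and 12 of 7786 in ODC, in place of 0 in each. With each library left out, the CA3 diet count ranged from 0 to 1 and the count of promoters in CA3 against DG-M from 5 to 7. The cause was not tested. Pcdh15 in CA1 against CA3 turned from 1.42 to -0.067 with members allowed among the variable genes and to -1.94 with CA1 as its Fibcd1 cluster. Of the other values for single genes and regions, 991 kept their side of the threshold or moved by less than the spread between replicates, 28 dropped below it, 3 passed it and 3 moved by more than that spread. Depth limits the rare classes, down to 15 nuclei and 31578 UMIs in a library, where members at a few CPM rest on single UMIs.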
